A study of Homo sapiens with 34 samples.

Results

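The polyamine genes are the 9 rows of the count table with the symbols ODC1, AMD1, SRM, SMS, AZIN1, OAZ1, SAT1, PAOX and SMOX, out of 26336 genes in all. They were named as a set with earlier results of these data known and were taken from the table by symbol. All 9 were found, and all 9 had enough reads to be tested in every fit. The lowest count of any of them in a library was 19 reads (PAOX) and the highest was 71091 (AMD1).

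Polyamines (putrescine, spermidine and spermine) are small positively charged amines that bind nucleic acids and are needed for cell growth. ODC1 (ornithine decarboxylase) makes putrescine, AMD1 (S-adenosylmethionine decarboxylase) supplies the aminopropyl donor, and SRM (spermidine synthase) and SMS (spermine synthase) build the longer amines. OAZ1 (antizyme) binds ODC1 protein and sends it for degradation, and AZIN1 (antizyme inhibitor) releases ODC1 by binding antizyme in its place. SAT1 (spermidine/spermine acetyltransferase) acetylates polyamines for export or breakdown, PAOX oxidises the acetylated forms, and SMOX oxidises spermine directly. Prostate epithelium is known for secreting large amounts of spermine, and ODC1 is a well-known androgen-responsive gene of the prostate.

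Poly(A) RNA was sequenced from 4 established lines: RWPE, a non-tumorigenic prostate epithelial line, LNCaP, labelled as from a lymph node metastasis, and VCaP and MDAPCa2a, both labelled as bone metastatic. Cells were grown on plastic or on plates with a coat of amorphous calcium phosphate (ACP), which the study used as a model of the bone surface. Control medium was each line's growth medium, stripped medium held charcoal-dextran-treated serum, and androgen medium was stripped medium with an androgen labelled 100 mM. The titles call this androgen DHT and the condition labels call it testosterone. The protocol describes 4 days of culture for all groups, while the plastic control libraries carry a label of continuous culture.

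RWPE was sequenced on plastic in control medium, on ACP in control medium and on ACP with androgen. It is grown in serum-free keratinocyte medium with EGF and pituitary extract and has no stripped group, so effects of stripped serum and of androgen cannot be told apart in it. LNCaP (RPMI with serum) and VCaP (DMEM and F12 with serum) were sequenced on plastic in control and stripped medium and on ACP in control, stripped and androgen medium. MDAPCa2a (BRFF-HPC1 with serum) had no ACP control group, and its plastic carried an FNC coating that its ACP plates did not. There were 17 groups of 2 libraries, apart from 3 for the RWPE androgen group and 1 for stripped VCaP cells on plastic. The labels do not say whether replicates are separate cultures, so p-values measure only the spread between these libraries, which may be technical.

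The 34 libraries held 15.4 to 44.8 M counts each. The basal markers KRT5 and TP63 were at 2348 and 88.3 CPM (counts scaled per library to a common total) or more in every RWPE library and at or under 13.0 and 0.470 CPM elsewhere, and ERG, part of the gene fusion that VCaP is known for, was at 126 CPM or more in VCaP and at or under 2.32 CPM elsewhere. KRT14, also a basal marker, was at 689 CPM or more in RWPE and at or under 36.2 CPM elsewhere. The luminal marker KLK3 was at 5.94 to 19.1 CPM in RWPE and at 36.1 CPM or more in the other lines. TMPRSS2, also luminal, was at 0.767 to 6.22 CPM in RWPE and at 89.8 CPM or more in the other lines. The luminal marker KLK2 did not separate RWPE (0.955 to 13.4 CPM) from LNCaP (7.03 to 202 CPM). KLK2 was at 611 CPM or more in MDAPCa2a and 2985 CPM or more in VCaP. The 8 plastic control libraries stood apart: both liver markers, FGG and APOA1, were present there and summed to 2.87 to 9.88 CPM, against 0 to 0.438 CPM in the other 26, where FGG had 0 reads in 25. The 2 lymphoid markers, CD74 and PTPRC, summed to 4.69 to 17.01 CPM there against 0 to 4.56 CPM. Nearly all of this was CD74, at 4.69 to 16.9 CPM there against 0 to 4.51 CPM. PTPRC was at or under 0.175 CPM in every line. Of the 3 fibroblast markers, COL1A2 was at 0.750 to 1.76 CPM in these 8 and at or under 0.176 CPM in the other 26. VIM was at 11.99 and 15.7 CPM in VCaP and 7.17 and 5.41 CPM in MDAPCa2a on plastic in control medium, against at or under 0.519 and 0.465 CPM in their other groups, and at 232.9 and 194 CPM in RWPE against 99.3 to 115 CPM. COL1A1 did not separate them over all lines. On ACP against plastic in control medium, 2 of 3 passed as lower in RWPE, 2 of 3 in LNCaP and 1 of 3 in VCaP (3 of 3 at an unadjusted p under 0.05). In any comparison with plastic control, what sets these libraries apart and the group cannot be told apart.

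Promoter sequence is shown for ODC1, AMD1 and SAT1, the members with the widest ranges over the 17 groups, and for SRM, a member with a narrow range and the only one with an E-box in its first window. Each is the 250 bases before the start site in RefSeq (build GRCh38.p14), 5′ to 3′ on the gene's strand, with motif matches in capitals. RefSeq entries matched 6 of the 9 members, namely these 4, OAZ1 and SMS; AZIN1, PAOX and SMOX were not matched.
ODC1: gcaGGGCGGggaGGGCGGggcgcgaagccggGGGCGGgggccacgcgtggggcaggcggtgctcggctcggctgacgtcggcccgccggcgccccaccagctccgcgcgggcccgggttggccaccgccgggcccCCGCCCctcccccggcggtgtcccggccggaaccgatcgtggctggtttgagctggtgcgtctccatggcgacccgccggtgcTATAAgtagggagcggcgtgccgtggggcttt
AMD1: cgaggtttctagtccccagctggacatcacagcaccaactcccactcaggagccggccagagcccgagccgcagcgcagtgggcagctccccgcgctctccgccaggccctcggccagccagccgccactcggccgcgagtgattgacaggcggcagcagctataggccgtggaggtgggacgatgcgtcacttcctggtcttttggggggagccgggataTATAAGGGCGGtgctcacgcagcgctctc
SAT1: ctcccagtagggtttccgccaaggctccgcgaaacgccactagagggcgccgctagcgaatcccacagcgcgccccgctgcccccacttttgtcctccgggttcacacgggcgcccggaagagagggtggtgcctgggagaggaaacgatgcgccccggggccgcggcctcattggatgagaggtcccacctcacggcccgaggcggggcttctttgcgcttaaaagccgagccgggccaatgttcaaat
SRM: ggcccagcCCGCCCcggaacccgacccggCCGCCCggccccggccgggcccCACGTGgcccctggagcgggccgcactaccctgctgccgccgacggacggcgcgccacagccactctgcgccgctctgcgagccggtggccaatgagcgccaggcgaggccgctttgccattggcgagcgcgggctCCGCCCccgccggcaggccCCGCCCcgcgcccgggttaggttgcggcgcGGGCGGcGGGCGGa
The windows are chr2:10448328-10448577 on the minus strand for ODC1, chr6:110874535-110874784 on the plus strand for AMD1, chrX:23782923-23783172 on the plus strand for SAT1 and chr1:11060019-11060268 on the minus strand for SRM. Each ends at the base before a RefSeq start site. Of 2 other RefSeq entries of AMD1, 1 has a window shifted by 1 base and 1 starts further upstream of the window shown.

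The motifs searched, on both strands, were the E-box CACGTG (bound by MYC and related factors), the androgen receptor half-site TGTTCT, the GC box GGGCGG and the TATA-like TATAA. Among 35116 RefSeq promoter windows of the same length, 6.34% held the E-box, 12.4% the half-site, 42.6% the GC box and 18.9% the TATA-like letters. SRM held 1 E-box, at −199 to −194 from the start site, and 6 GC boxes. ODC1 held 4 GC boxes and a TATA-like match at −32 to −28, and a second RefSeq entry of ODC1 held 1 E-box. AMD1 held a TATA-like match at −29 to −25 directly followed by a GC box at −24 to −19. OAZ1 held 2 GC boxes, SMS held 1, and the SAT1 window held none of the 4 motifs. The half-site letters were in none of the 6 windows. A match is a description of the letters, not a binding site.

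**Figure D1:**
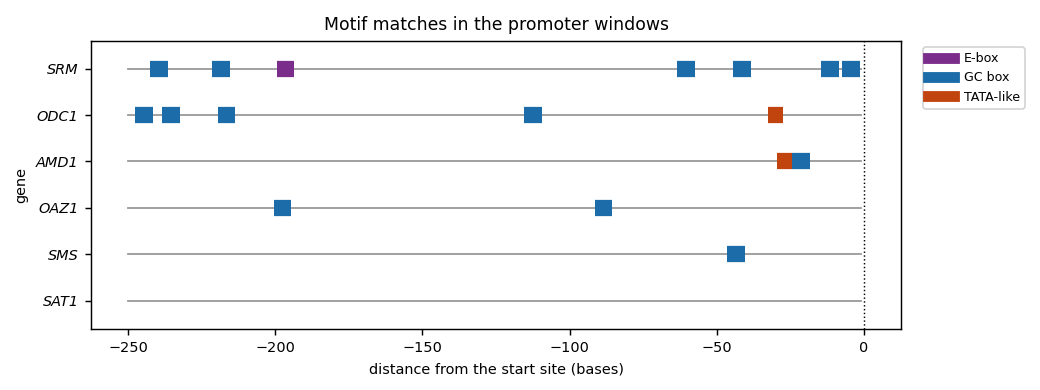
Motif matches in the promoter windows of 6 polyamine genes; the horizontal axis is the distance in bases from the RefSeq start site from the window's start to the start site, each line is a gene and each mark a match. SRM carries 6 GC boxes and the E-box, ODC1 and AMD1 have a TATA-like match close to the start site, and SAT1 has no match.

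Levels are given in CPM with trimmed-mean scaling over all 34 libraries. In bulk RNA such as this, fewer cells of a type and less RNA per cell cannot be told apart. AMD1 had the widest range of group means, from 115 CPM in RWPE on ACP in control medium to 2309 CPM in LNCaP on ACP with androgen, a 20.1-fold range. ODC1 ranged 14.7-fold, from 139 CPM in RWPE on ACP in control medium to 2049 CPM in VCaP on ACP with androgen. SAT1 ranged 8.19-fold, from 64.9 to 531 CPM, with both ends in LNCaP: stripped medium on plastic was lowest and androgen on ACP highest. PAOX ranged 7.77-fold (1.28 to 9.97 CPM) and SMOX 6.87-fold (5.25 to 36.1 CPM). The other 4 varied less: SMS 3.12-fold (105 to 327 CPM), AZIN1 2.50-fold (178 to 445 CPM), SRM 2.35-fold (72.3 to 170.3 CPM) and OAZ1 2.31-fold (583 to 1348 CPM).

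**Figure D2:**
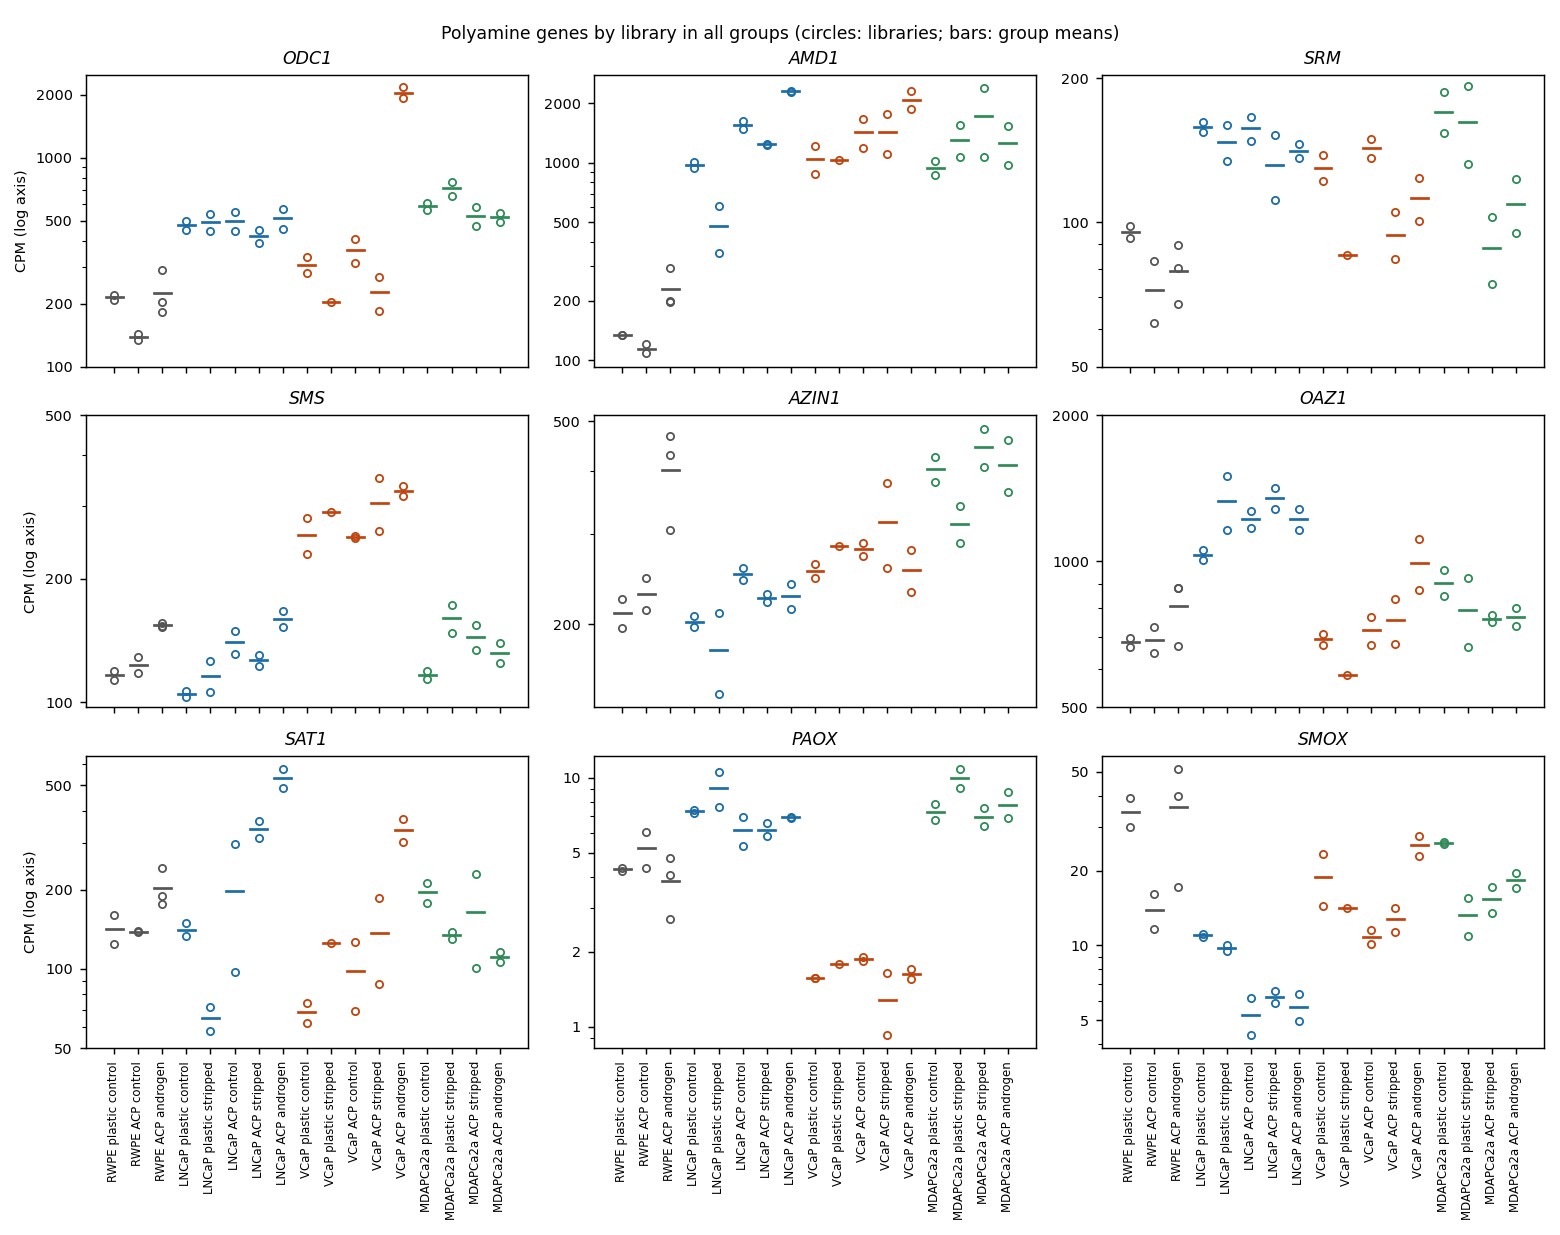
Level of each of the 9 polyamine genes in 34 libraries; the vertical axis is CPM on a log scale, the horizontal axis lists the 17 groups, circles are libraries and bars are group means. ODC1 in VCaP on ACP with androgen (1922 and 2176 CPM) lies above every other library, AMD1 is lowest in the 3 RWPE groups, SMS is highest and PAOX lowest in the 5 VCaP groups.

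Most neighbours in the order of the 17 group means were not separated. Of 16 neighbouring pairs, the ranges of the libraries overlapped in 16 for SRM, 15 for AZIN1, 14 for SMS and OAZ1, 12 for SAT1, PAOX and SMOX, 11 for ODC1 and 10 for AMD1. ODC1 in VCaP on ACP with androgen was separated from the next group, MDAPCa2a on plastic in stripped medium. For SMS the 5 VCaP groups were the top 5, the lowest of them above the next group, MDAPCa2a on plastic in stripped medium. For PAOX the 5 VCaP groups were the lowest 5, all below the next group, RWPE on ACP with androgen.

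Levels of different genes were compared as CPM per kilobase of exon. OAZ1 ranked first of the 9 in all 17 groups, at 508 to 1174 CPM per kilobase, and PAOX and SMOX took the last 2 ranks in all 17. AMD1 ranked between 2 and 7, at 32.9 to 662 CPM per kilobase, with its lowest ranks in RWPE. The lengths came from another annotation than the counts, so the per-kilobase values are approximate, and reads from AMD1 and SRM could be split with their pseudogene copies and AZIN1 with its antisense gene.

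Surface, serum and androgen were tested within lines with edgeR, in 17 comparisons, and a gene passed at a Benjamini-Hochberg adjusted p under 0.05 over all genes. The 9 members gave 18 calls in all: AMD1 5, SAT1 4, SMOX 4, ODC1 3, SMS 1 and AZIN1 1. SRM, OAZ1 and PAOX passed in none of the 17 comparisons. A comparison's background is the share of all tested genes that passed in either direction.

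The first question was whether the ACP surface moved these genes. In control medium, 3 of 9 passed in LNCaP (2 higher, 1 lower on ACP) against 12.6% of all genes, 0 of 9 in RWPE against 4.16%, and 0 of 9 in VCaP against 0.0448%. In stripped medium, 2 of 9 passed in LNCaP, both higher on ACP, against 6.12%, and 0 of 9 in VCaP and MDAPCa2a, against 0% and 0.00734%. At an unadjusted p under 0.05 the counts with 0 calls were 2 in RWPE, 1 and 0 in VCaP and 2 in MDAPCa2a; DESeq2 called 1, 0, 0 and 0. Over all genes the same 4 comparisons had 3269, 1123, 511 and 2071 genes at an unadjusted p under 0.05 and 1334, 41, 4 and 206 by DESeq2, of 14293, 15614, 15614 and 13626 tested.

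For stripped against control medium, 1 of 9 passed in LNCaP on plastic against 9.45% of all genes. None of the 9 passed in VCaP on plastic (background 0.890%), MDAPCa2a on plastic (1.58%), LNCaP on ACP (5.37%) or VCaP on ACP (0.820%). Unadjusted p under 0.05 was reached by 1, 2, 0 and 2 members in these 4, and DESeq2 called 0, 1, 0 and 0. Over all genes these were 3102, 2208, 3198 and 2585 genes at an unadjusted p under 0.05 and 1172, 594, 1307 and 845 by DESeq2.

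For androgen against stripped medium on ACP, 3 of 9 passed in VCaP, all higher, against 17.5% of all genes (8.67% higher). In LNCaP 1 of 9 passed, higher with androgen, against 7.73%, and in MDAPCa2a 0 of 9 passed, against 0% of all genes, with 0 members at an unadjusted p under 0.05 and 0 by DESeq2. For androgen against control medium on ACP, 4 of 9 passed in RWPE, all higher, against 19.1% (11.0% higher), 1 of 9 in LNCaP against 15.1%, and 3 of 9 in VCaP against 5.99% (3.71% higher). In that RWPE comparison 2 of the 3 basal markers passed as lower with androgen: KRT5 was at 10153 and 8094 CPM in control medium and 2348, 6631 and 3060 CPM with androgen (log2 −1.16; edgeR adjusted p = 0.0463), TP63 at 205 and 219.9 against 88.3, 149 and 118 CPM (−0.82; edgeR adjusted p = 0.0290), and KRT14 did not pass (−1.28; edgeR adjusted p = 0.144). The part of this marker change in the RWPE results was not tested. The comparisons of a line share groups, so their calls are not independent of each other.

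**Figure D3:**
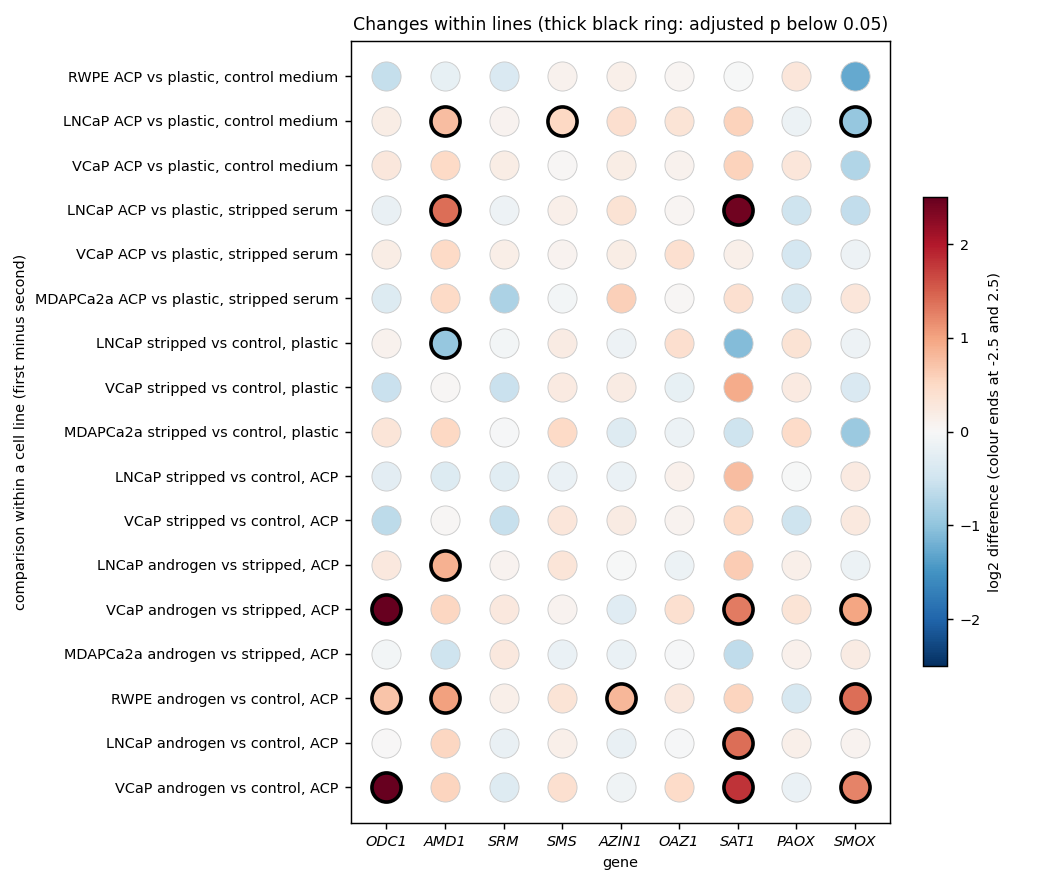
Log2 difference of each polyamine gene (columns) in the 17 within-line comparisons (rows). Colour gives the fitted log2 difference, with the scale ending at −2.5 and 2.5, and a black ring marks an edgeR adjusted p under 0.05. The 18 rings fall mainly on AMD1 in LNCaP and on ODC1, SAT1 and SMOX in VCaP with androgen, and none falls on SRM, OAZ1 or PAOX.

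ODC1, the enzyme of the first step, was far higher in VCaP with androgen. On ACP its libraries were at 186 and 268 CPM in stripped medium, 315 and 409 CPM in control medium, and 2176 and 1922 CPM with androgen (means 227 ± 58.0, 362 ± 66.7 and 2049 ± 179.6, SD, n = 2 each). Both androgen libraries lay far above all other VCaP libraries, which ended at 409 CPM. The fitted rise was 9.04-fold against stripped medium (log2 3.18 ± 0.26, SE; edgeR adjusted p = 0.000354) and 5.74-fold against control medium (log2 2.52 ± 0.25; edgeR adjusted p = 0.00202). Both passed without any 1 of the 4 libraries compared, at log2 2.98 to 3.46 and 2.35 to 2.71.

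ODC1 did not pass in LNCaP or MDAPCa2a with androgen. In LNCaP on ACP the libraries were at 392 and 453 CPM in stripped medium and 567 and 458 CPM with androgen (log2 0.26 ± 0.18; edgeR adjusted p = 0.417). In MDAPCa2a they were at 584 and 474 CPM without and 543 and 492 CPM with androgen (log2 −0.08 ± 0.19; edgeR adjusted p = 0.971). Over the groups without androgen, ODC1 was at 392 to 552 CPM in LNCaP, 474 to 769 CPM in MDAPCa2a and 186 to 409 CPM in VCaP, where 1 library reached the LNCaP range.

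The androgen effect on ODC1 differed between lines. It was larger in VCaP than in LNCaP by log2 2.90 ± 0.31 (edgeR adjusted p = 3.29e-06, fit of all lines), in a test where 1 of 9 members and 10.9% of all genes passed. It was larger in VCaP than in MDAPCa2a by log2 3.21 ± 0.31 (edgeR adjusted p = 6.83e-07), where 2 of 9 members and 7.86% of all genes passed. Both differences passed without any 1 of the 8 libraries, at log2 2.65 to 3.19 and 3.00 to 3.50. Between LNCaP and MDAPCa2a, 0 of 9 members passed against 1.12% of all genes, with 3 members at an unadjusted p under 0.05 and 0 by DESeq2.

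In RWPE on ACP, ODC1 was at 144 and 134 CPM in control medium and at 204, 183 and 290.4 CPM with androgen, with no overlap. The rise was 1.64-fold (log2 0.71 ± 0.21; edgeR adjusted p = 0.0395), and it no longer passed without control replicate 1 (log2 0.71), control replicate 2 (0.69) or androgen replicate 1 (0.78). On plastic in control medium RWPE was at 221 and 209 CPM, above both ACP control libraries, and this surface difference did not pass (log2 −0.60 ± 0.23; edgeR adjusted p = 0.150).

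AMD1, which supplies the aminopropyl group for both synthases, carried 4 of the 8 LNCaP calls. Its LNCaP libraries were at 1011 and 943 CPM on plastic in control medium, 351 and 607 CPM on plastic in stripped medium, 1625 and 1489.7 CPM on ACP in control medium, 1233 and 1252 CPM on ACP in stripped medium, and 2297 and 2321 CPM on ACP with androgen. None of these 5 LNCaP groups overlapped. The lowest was stripped medium on plastic, and on either surface stripped medium was below control medium. On ACP this serum difference did not pass (log2 −0.34 ± 0.23, edgeR adjusted p = 0.396). Androgen over control medium on ACP did not pass either (log2 0.53 ± 0.23, edgeR adjusted p = 0.131).

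On ACP AMD1 was 1.71-fold higher than on plastic in control medium (log2 0.78 ± 0.23; edgeR adjusted p = 0.0467) and 2.63-fold higher in stripped medium (log2 1.39 ± 0.23; edgeR adjusted p = 0.0082). Stripped medium on plastic gave a 1.95-fold fall (log2 −0.96 ± 0.23; edgeR adjusted p = 0.0234), and androgen on ACP a 1.84-fold rise over stripped medium (log2 0.88 ± 0.23; edgeR adjusted p = 0.0384). Of these calls, the stripped-medium surface call lay furthest under the threshold, and the other calls lay closer to it. The control-medium surface call and the androgen call were lost without any 1 of their 4 libraries (log2 0.67 to 0.84 and 0.86 to 0.91) and in the fit of all lines (0.67 and 0.89). The stripped-medium surface call was lost without ACP replicate 1 (1.40) or 2 (1.37), and the fall on plastic without either control library (−0.92 without replicate 1) or stripped replicate 1 (−0.59) and in the fit of all lines (−1.03).

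In RWPE AMD1 was at 109 and 121 CPM on ACP in control medium and at 294, 199 and 198 CPM with androgen, with no overlap. The rise was 2.04-fold (log2 1.03 ± 0.22; edgeR adjusted p = 0.0183), and it was lost without either control library (0.89 and 1.13). VCaP and MDAPCa2a replicates spread widely for AMD1. In VCaP on ACP they were at 1116 and 1759.5 CPM in stripped medium and 1868 and 2301 CPM with androgen (log2 0.54 ± 0.29; edgeR adjusted p = 0.222). In MDAPCa2a they were at 2400.1 and 1067 CPM without and 1531 and 981 CPM with androgen (log2 −0.52 ± 0.40; edgeR adjusted p = 0.968).

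Of the 2 synthases, SMS passed once. SMS was at 103 and 106 CPM in LNCaP on plastic and at 149 and 131 CPM on ACP in control medium, with no overlap, a 1.44-fold rise on ACP (log2 0.52 ± 0.16; edgeR adjusted p = 0.0493). This call was lost without plastic replicate 1 (0.49) or 2 (0.56) or ACP replicate 1 (0.39). With all libraries it was also lost with DESeq2's size factors (0.51; edgeR adjusted p = 0.0535), with the replicate number as a block (0.53; 0.0531) and in the fit of all lines (0.42; 0.104). SRM passed in no within-line comparison. Its MDAPCa2a libraries were at 192.2 and 132 CPM on plastic and 74.3 and 103 CPM on ACP in stripped medium, without overlap. That difference did not pass (log2 −0.79 ± 0.23, edgeR adjusted p = 0.233). Without the count filter the same difference passed (log2 −0.83, edgeR adjusted p = 0.0265). In VCaP on ACP SRM was at 136 and 149 CPM in control and 105 and 83.7 CPM in stripped medium (log2 −0.58; edgeR adjusted p = 0.185).

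Of the 2 regulators of ODC1 protein, AZIN1 passed once. In RWPE on ACP it was at 213 and 246 CPM in control medium and at 467, 429 and 306 CPM with androgen, a 1.77-fold rise with no overlap (log2 0.82 ± 0.22; edgeR adjusted p = 0.0296). It was lost without control replicate 1 (0.66) or 2 (0.95) or androgen replicate 1 (0.70) or 2 (0.77). In VCaP, where ODC1 rose most, AZIN1 was at 257 and 378 CPM in stripped medium and at 232 and 280.1 CPM with androgen on ACP, which overlapped. OAZ1 was at 837 and 674 CPM without and 871 and 1111 CPM with androgen in the same VCaP libraries, and it passed in no within-line comparison. Antizyme and its inhibitor also act at the level of translation and protein binding, which these data do not measure.

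SAT1, the acetyltransferase of breakdown and export, was higher on ACP than on plastic in LNCaP in stripped medium. Its LNCaP libraries were at 71.7 and 58.0 CPM on plastic and 365 and 313 CPM on ACP, a 5.36-fold rise (log2 2.42 ± 0.38; edgeR adjusted p = 0.00616). It did not pass without plastic replicate 1 (2.51). In LNCaP on ACP in control medium the replicates were at 97.1 and 299 CPM, the widest disagreement of any member in this line, and plastic control was at 133 and 149 CPM. With androgen LNCaP reached 575 and 487 CPM on ACP, 2.64-fold over control medium (log2 1.40 ± 0.37; edgeR adjusted p = 0.0263; lost without androgen replicate 1, 1.26) and not past the threshold over stripped medium (log2 0.63; edgeR adjusted p = 0.313).

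Other SAT1 calls in LNCaP depended on the control pair on ACP and on the count filter. Without its replicate 1, SAT1 passed for surface in control medium (log2 1.15; edgeR adjusted p = 0.0222). Without its replicate 2, SAT1 passed for stripped against control medium on ACP (log2 1.76; edgeR adjusted p = 0.00136) and for the interaction of surface and serum (log2 2.84; edgeR adjusted p = 0.000488). With all libraries that interaction was log2 1.84 ± 0.51 (edgeR adjusted p = 0.239), and 0 of 9 members passed it against 0.307% of all genes, with 1 member at an unadjusted p under 0.05 and 0 by DESeq2. With all libraries and no count filter, SAT1 passed for surface in control medium (log2 0.57; edgeR adjusted p = 0.0345), for stripped against control medium on ACP (0.76; 0.00415) and on plastic (−1.08; 1.45e-05, against 0.0916 with the filter), for androgen over stripped medium (0.63; 0.0206) and for the interaction (1.84; 5.37e-07).

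In VCaP on ACP, SAT1 was at 186 and 87.8 CPM in stripped medium, 127 and 69.0 CPM in control medium, and 305 and 372 CPM with androgen. The androgen libraries were above all others of the line, a 2.47-fold rise over stripped medium (log2 1.30 ± 0.37; edgeR adjusted p = 0.0369) and a 3.50-fold rise over control medium (log2 1.81 ± 0.37; edgeR adjusted p = 0.0243). The first was lost without stripped replicate 2 (0.86) or androgen replicate 1 (1.47) or 2 (1.15), and the second without any 1 of its 4 libraries (1.43 to 2.32). In MDAPCa2a SAT1 was at 229 and 101 CPM without and 116 and 107 CPM with androgen, which overlapped.

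The androgen effect on SAT1 was larger in VCaP than in MDAPCa2a by log2 1.87 ± 0.55 (edgeR adjusted p = 0.0351). This was lost without VCaP stripped replicate 2 (1.43), VCaP androgen replicate 2 (1.73), MDAPCa2a stripped replicate 1 (1.16), or MDAPCa2a androgen replicate 1 (1.93) or 2 (1.82). The high MDAPCa2a stripped library, at 229 CPM, moved the SAT1 value most.

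Of the 2 oxidases, SMOX was called and PAOX was not. In VCaP on ACP SMOX was at 14.1 and 11.4 CPM in stripped medium, 10.1 and 11.5 CPM in control medium, and 27.6 and 22.9 CPM with androgen, without overlap. It rose 1.99-fold over stripped (log2 0.99 ± 0.29; edgeR adjusted p = 0.0416) and 2.36-fold over control medium (log2 1.24 ± 0.29; edgeR adjusted p = 0.0374). Both were lost without any 1 of their 4 libraries (0.84 to 1.20 and 1.10 to 1.36).

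In LNCaP SMOX was at 11.1 and 10.8 CPM on plastic and 4.36 and 6.13 CPM on ACP in control medium, a 1.95-fold fall (log2 −0.96 ± 0.22; edgeR adjusted p = 0.0213) that was lost without plastic replicate 1 (−0.96) or 2 (−0.97) or ACP replicate 1 (−0.77) and in the fit of all lines (−1.06). SMOX was also lower on ACP in RWPE, at 16.1 and 11.6 CPM against 30.0 and 39.1 CPM on plastic, which did not overlap and did not pass (log2 −1.29 ± 0.39; edgeR adjusted p = 0.0895). In VCaP SMOX was at 10.1 and 11.5 CPM on ACP and 23.3 and 14.5 CPM on plastic (log2 −0.75 ± 0.29; edgeR adjusted p = 0.658). All 3 comparisons use the plastic control libraries that stand apart, and the part of that in SMOX was not tested. In stripped medium, without those libraries, SMOX on ACP minus plastic was log2 −0.61 ± 0.22 in LNCaP (edgeR adjusted p = 0.111). It was 0.30 ± 0.21 in MDAPCa2a (edgeR adjusted p = 0.486) and −0.13 in VCaP, which had 1 plastic library.

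RWPE with androgen reached 39.9, 17.2 and 51.1 CPM of SMOX against 16.1 and 11.6 CPM in control medium on ACP, a 2.63-fold rise (log2 1.40 ± 0.37; edgeR adjusted p = 0.0301). It was lost without control replicate 1 (1.60) or 2 (1.20) or androgen replicate 1 (1.32). PAOX stayed between 0.927 and 10.8 CPM in all 34 libraries, rested on 19 to 410 reads, and passed in no within-line comparison.

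For reference, 3 androgen-response genes and 5 genes of dividing cells were read beside the members. KLK3, FKBP5 and TMPRSS2 all rose with androgen over stripped medium in LNCaP (log2 1.01, 1.94 and 2.27) and in VCaP (4.77, 3.31 and 2.91). The KLK3 call in LNCaP was lost without stripped replicate 1 (lowest value over the removals 0.91), and the other 5 calls passed without any 1 library. None of the 3 passed in MDAPCa2a (−0.46, −0.14 and −0.35) or in RWPE against control medium. In MDAPCa2a 0 of all genes passed by edgeR (236 at an unadjusted p under 0.05, 3 by DESeq2), and in RWPE 4 polyamine genes rose while the 3 androgen-response genes did not pass.

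Genes of dividing cells (MKI67, TOP2A, CCNB1, MCM2 and PCNA) moved in opposite directions in the 2 responding lines. In VCaP 4 of 5 were higher with androgen than in stripped medium (median log2 1.14; TOP2A 0.64 did not pass), and in LNCaP 5 of 5 were lower (median −1.20). The LNCaP calls were each lost without stripped replicate 1 or 2 or androgen replicate 1 (over these and the other removal, log2 −2.49 to −1.04 for TOP2A and −1.38 to −0.74 for PCNA), and of the VCaP calls only that of CCNB1 (log2 2.35; 1.83 to 3.01) passed without any 1 library. Against control medium on ACP, 5 of 5 passed as lower with androgen in LNCaP (median log2 −1.68), where 15.1% of all genes passed. Of these calls, those of TOP2A, CCNB1 and MCM2 passed in every refit. None of the 5 passed in VCaP against control medium (median −0.42, lowest edgeR adjusted p 0.0824, 2 at an unadjusted p under 0.05). In RWPE only CCNB1 passed (log2 0.74; edgeR adjusted p = 0.0495). The part of cell division in the polyamine gene results was not tested.

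**Figure D4:**
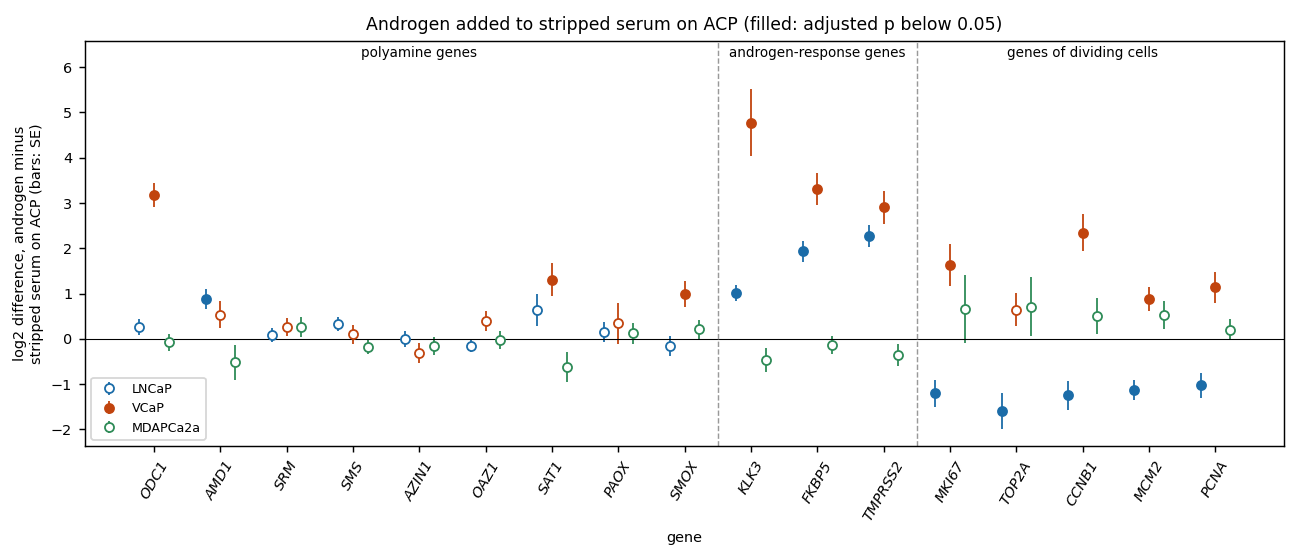
Androgen minus stripped medium on ACP in LNCaP, VCaP and MDAPCa2a for the 9 polyamine genes, the 3 androgen-response genes and the 5 genes of dividing cells; the axis is the fitted log2 difference and bars are its SE. ODC1 in VCaP (3.18) lies among the androgen-response genes of that line (2.91 to 4.77), while in LNCaP ODC1 is at 0.26 and AMD1 at 0.88.

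The lines were compared with each other in plastic control medium and on ACP with androgen, in a fit of all 34 libraries; each line has its own medium, which cannot be told apart from the line. Many genes differ between lines, so counts were read against a high background. In plastic control medium 6 of 9 members passed between LNCaP and RWPE (background 57.4%), 6 between VCaP and RWPE (62.4%), 5 between MDAPCa2a and RWPE (56.7%), 6 between VCaP and LNCaP (52.6%), 2 between MDAPCa2a and LNCaP (40.2%) and 5 between VCaP and MDAPCa2a (52.4%). On ACP with androgen the counts were 8 (66.9%), 6 (67.4%), 6 (64.0%), 4 (56.0%), 5 (45.3%) and 5 (51.4%) in the same order. As shares of the 9 members these run from 22.2% to 88.9%, on both sides of the background.

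AMD1 separated RWPE from the cancer lines most. RWPE libraries were at 109 to 294 CPM and those of the cancer lines at 351 to 2400.1 CPM, with no overlap over any group. In plastic control medium AMD1 was higher than in RWPE by log2 2.86 ± 0.34 in LNCaP (edgeR adjusted p = 1.1e-07), 2.96 ± 0.34 in VCaP (5.61e-08) and 2.81 ± 0.34 in MDAPCa2a (1.34e-07). On ACP with androgen the differences were 3.33 ± 0.30, 3.18 ± 0.30 and 2.45 ± 0.29. All 6 passed in every alternative and without any library.

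ODC1 was higher than in RWPE in all 3 cancer lines in both settings, by log2 1.14, 0.52 and 1.45 in LNCaP, VCaP and MDAPCa2a on plastic and by 1.18, 3.18 and 1.20 on ACP with androgen. The VCaP value on plastic was the weakest (edgeR adjusted p = 0.0379) and was lost without RWPE replicate 1 (0.52) or 2 (0.48) or VCaP replicate 2 (0.38) and without the count filter (0.50). The place of VCaP differed between the 2 settings, which differ in both surface and medium. ODC1 was below LNCaP on plastic (log2 −0.63; edgeR adjusted p = 0.0165; lost without LNCaP replicate 1, −0.55, or VCaP replicate 1, −0.50) and below MDAPCa2a (−0.93), and above both on ACP with androgen (2.00 and 1.98).

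SMS was higher in VCaP than in RWPE, LNCaP and MDAPCa2a on plastic (log2 1.13, 1.28 and 1.13) and on ACP with androgen (1.09, 1.03 and 1.31). Its VCaP libraries were at 229 to 351 CPM and those of the other lines at 103 to 172 CPM, with no overlap. PAOX was lower in VCaP than in the same 3 lines, by log2 −1.45, −2.22 and −2.21 on plastic and −1.23, −2.08 and −2.26 on ACP with androgen, and VCaP libraries were at 0.927 to 1.90 CPM against 2.71 to 10.8 CPM elsewhere. All 12 of these SMS and PAOX differences passed in every alternative and without any library.

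SMOX was low in LNCaP. It was below RWPE by log2 −1.66 on plastic and −2.67 on ACP with androgen and below MDAPCa2a in both (MDAPCa2a minus LNCaP 1.23 and 1.69). AZIN1 was higher in MDAPCa2a than in LNCaP (log2 0.99 and 0.86) and VCaP (VCaP minus MDAPCa2a −0.66 and −0.68). The plastic difference from VCaP was lost without VCaP replicate 1 (−0.62) or MDAPCa2a replicate 1 (−0.58), and that with androgen without VCaP replicate 1 (−0.55) or MDAPCa2a replicate 1 (−0.50). Against RWPE it was higher on plastic (0.94) and not on ACP with androgen (0.04; edgeR adjusted p = 0.889).

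SAT1 depended on the setting. The difference between LNCaP and RWPE did not pass on plastic (log2 −0.01; edgeR adjusted p = 0.994), and LNCaP was higher on ACP with androgen (1.39; edgeR adjusted p = 0.00104). VCaP was below MDAPCa2a on plastic (−1.51) and above it on ACP with androgen (1.60). OAZ1 was higher in LNCaP than in RWPE by log2 0.60 on plastic (lost without RWPE replicate 1, 0.47) and 0.59 on ACP with androgen. SRM was higher in LNCaP than in RWPE by log2 0.73 on plastic (lost without RWPE replicate 1, 0.59) and 0.83 on ACP with androgen.

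**Figure D5:**
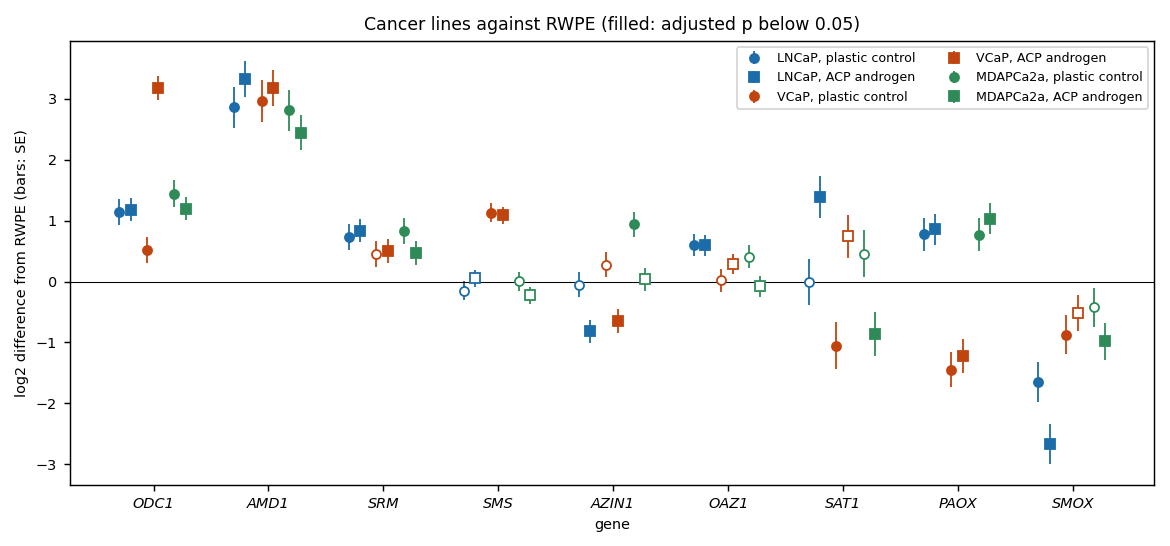
Each cancer line minus RWPE for the 9 polyamine genes in plastic control medium (circles) and on ACP with androgen (squares); the axis is the fitted log2 difference, bars are its SE and filled symbols have an edgeR adjusted p under 0.05. AMD1 is higher in all 3 lines in both settings (2.45 to 3.33), and ODC1 in VCaP moves from 0.52 to 3.18.

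A list of 30 other genes of polyamine supply, salvage, transport, breakdown and use was read in the same fits, of which 23 to 29 were tested in a line. It gave 33 within-line calls, of which 3 passed in every alternative and without any library. In VCaP with androgen against stripped medium, 5 of 28 passed (17.9% against 17.5% of all genes): OAZ3, an antizyme, was higher (log2 1.44), and ARG2, an arginase that supplies ornithine (−1.19), MRI1 of methionine salvage (−0.84), AOC1, a diamine oxidase (−3.37), and SLC18B1, a vesicular polyamine transporter (−2.34 ± 0.42; edgeR adjusted p = 0.00638), were lower. Their median was log2 0.12 over the list and −0.03 over all genes. SLC18B1 was at 17.8 CPM in stripped medium and 3.49 CPM with androgen and was the 1 of these 5 that passed in every refit.

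In LNCaP the list gave 4 of 29 calls for surface in control medium, 3 for surface in stripped medium, 5 for stripped medium on plastic, 3 for stripped medium on ACP, 1 for androgen over stripped medium and 3 for androgen over control medium. As shares these were 13.8%, 10.3%, 17.2%, 10.3%, 3.45% and 10.3% of the list, against 12.6%, 6.12%, 9.45%, 5.37%, 7.73% and 15.1% of all genes. SLC7A1, a carrier of arginine and ornithine, was in 5 of these 6. It was at 275 CPM in control and 106 CPM in stripped medium on plastic (log2 −1.32 ± 0.13; edgeR adjusted p = 0.000229), at 144 and 68.5 CPM on ACP (−1.09), and lower with androgen than in control medium on ACP (−1.11; edgeR adjusted p = 0.000809). The first and last passed in every refit, and the call on ACP was lost only in the fit of all lines. SLC3A2, part of a transporter complex that also carries polyamines, was lower on ACP (−0.63) and in stripped medium on plastic (−0.76), and ARG1, an arginase, was higher with androgen (1.73, from 1.13 to 3.79 CPM). These 3 calls were each lost without at least 1 library.

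In RWPE with androgen 7 of 27 passed (25.9% against 19.1% of all genes): ARG2 (log2 0.71), MAT2B, a subunit of S-adenosylmethionine synthesis (0.89), the salvage enzymes APIP (0.97) and ADI1 (0.86), the carrier SLC7A2 (1.25) and the hypusinated factor EIF5A2 (1.10) were higher, and the lysosomal polyamine exporter ATP13A2 was lower (−0.87). Each of the 7 was lost without at least 1 library. In VCaP with androgen against control medium ARG2 (−1.64) and OAZ3 (1.27) passed (7.14% of the list against 5.99%), and both were lost without any 1 of their 4 libraries. In the other 8 within-line comparisons 0 passed by edgeR, with 0 to 5 genes at an unadjusted p under 0.05.

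Genes whose 17 group means ran most like those of a member were named among 11395 genes with a mean of at least 5 CPM, by Pearson's r of log2 CPM, as a description over 17 means that share lines and libraries. The nearest to ODC1 was AMACR (r = 0.91), to AMD1 TC2N (0.97), to SMS TDP2 (0.97), to PAOX ZNF778 (0.97), to OAZ1 TMEM208 (0.94), to AZIN1 CYP20A1 (0.93), to SRM SLC5A6 (0.92), to SMOX AKNA (0.88) and to SAT1 PNPLA8 (0.87). Among the members the highest r was between ODC1 and AMD1 (0.64) and the lowest between SMS and PAOX (−0.89), the pair that sets VCaP apart.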

How the data were processed

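Poly(A) RNA from 34 libraries was measured as whole-number read counts per gene, deposited by the authors as 1 table of 26336 genes. Reads were aligned with STAR and counted with HTSeq on hg19, per the submitters' processing notes; the sources used here give no versions, gene annotation or strand setting. All columns matched 1 sample each, and 4335 genes had 0 reads in every library.

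The 9 members and all gene lists were chosen with earlier results of these data known. Named genes were the 9 members, genes of the fixed lists that passed, and the 3 genes nearest in pattern to each member, of which the first is printed. Counts were filtered (filterByExpr, minimum count 10), scaled by trimmed means and tested by the quasi-likelihood F test of edgeR 4.0.16 in R 4.3.3, with Benjamini-Hochberg adjustment over all genes at 0.05. Each line was fitted alone, while differences between lines came from 1 fit of every library (33 comparisons in all). The SE is the log2 difference divided by the square root of F. Levels are CPM with trimmed-mean library sizes. Exonic lengths came from GENCODE on GRCh38, and promoters from RefSeq. The scripts were tested on simulated data. Alternatives were DESeq2 1.42.0, DESeq2's size factors in edgeR, no count filter, the replicate number as a block, the fit of all lines and leaving out each library (56 regroupings); the same refits for called genes of the other lists were added after seeing the data. Where a group of 2 lost a library, the lone library was assumed to vary like the other groups. No pair of replicates was a duplicate: pairs correlated at 0.974 to 0.993 and differed beyond counting noise.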

Additional observations from a re-analysis of the deposited data

Results flagged for a closer look

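The androgen effect on ACP (androgen minus stripped medium) differed between lines, by the edgeR test of the difference in the fit of all lines, for 2 of the 9 polyamine genes. For ODC1 it was larger in VCaP than in LNCaP by log2 2.90 and than in MDAPCa2a by 3.21, and for SAT1 it was larger in VCaP than in MDAPCa2a by 1.87. Both ODC1 differences passed without any 1 of the 8 libraries, and the SAT1 difference did not pass without 5 of them.

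Among the 30 other genes of the pathway the same test gave 10 differences past the threshold, of which 1 passed in every refit. They were 7 of 29 between VCaP and LNCaP (24.1%, against 10.9% of all genes) and 3 of 29 between VCaP and MDAPCa2a (10.3% against 7.86%). Between VCaP and LNCaP, the effect was lower in VCaP for ARG2 (log2 −1.92; edgeR adjusted p = 0.00981), AGMAT, which makes putrescine from agmatine (−2.28; 0.0157), MAT1A, which makes S-adenosylmethionine (−2.54; 0.0350), MRI1 (−0.96; 0.0338) and SLC18B1 (−1.53; 0.0136). It was higher in VCaP for ENOPH1, a methionine salvage enzyme (0.67; 0.0319), and OAZ3 (1.36; 0.0490). Between VCaP and MDAPCa2a, it was lower in VCaP for MRI1 (−0.97; 0.0383) and SLC18B1 (−2.34; 0.000514) and higher for OAZ3 (1.69; 0.0279). AGMAT was near the floor in every LNCaP library (ranges are under Other observations), so the LNCaP side of its difference rests on few reads. The difference between VCaP and MDAPCa2a for SLC18B1 is the 1 that passed in every refit. Of the 8 removals of a library, the VCaP and LNCaP difference passed in 5 for ARG2, AGMAT and SLC18B1, 4 for MRI1, 3 for MAT1A, 2 for ENOPH1 and 0 for OAZ3, and the VCaP and MDAPCa2a difference in 3 for MRI1 and 2 for OAZ3.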

How the results depend on the processing

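Of 85 polyamine gene calls over all comparisons, 48 passed under every alternative and without any library, and no value that passed in either fit changed sign, out of 777 such values (128 of the 1905 that passed in neither fit did). Of the calls within lines, only those of ODC1 in VCaP with androgen, over stripped and over control medium, passed in every refit. The other calls kept were between lines, where 40.2% to 67.4% of all genes passed, or were differences of androgen effects for ODC1. The count of members called moved as follows, with proportionally small moves left out, and the cause was not tested. Without the count filter it was 1 for RWPE surface (0 in the report), 1 for MDAPCa2a surface (0), 2 for LNCaP stripped medium on plastic (1), 1 for MDAPCa2a stripped medium on plastic (0), 1 for LNCaP stripped medium on ACP (0), 2 for LNCaP androgen over stripped (1), 2 over control medium (1), 1 for the LNCaP interaction (0) and 1 for the LNCaP and MDAPCa2a difference of androgen effects (0). In the fit of all lines it was 1 for RWPE surface, and 0 for LNCaP surface in control medium (3), stripped medium on plastic (1) and androgen over stripped medium (1). DESeq2 gave 1 for RWPE surface (SMOX) and 1 for MDAPCa2a stripped medium on plastic (SMOX). Leaving out each library gave 0 to 2 for LNCaP surface in control medium, 1 to 3 in stripped medium, 0 to 1 for MDAPCa2a surface, 0 to 2 and 0 to 1 for LNCaP stripped medium on plastic and on ACP, 0 to 0 for LNCaP and 1 to 2 for VCaP androgen over stripped, 0 to 7 for RWPE, 0 to 1 for LNCaP and 1 to 1 for VCaP androgen over control, 3 to 5 for LNCaP and VCaP against RWPE, 2 to 5 for VCaP against LNCaP on plastic, 3 to 5 for MDAPCa2a against LNCaP with androgen, 0 to 1 for the interaction, and 1 to 3 and 0 to 1 for the androgen effects of VCaP and LNCaP minus MDAPCa2a. The VCaP plastic stripped group has 1 library, so leaving it out gave no value. The 1 called value that reversed was AOC1 between VCaP and LNCaP on ACP with androgen (log2 −2.93), at −3.84 without LNCaP androgen replicate 1 and 0.25 without replicate 2. Replicate numbers were not used as pairs in the main fits. Over 25 pairs of groups, deviations of same-numbered libraries correlated at −0.23 to 0.21, with 6 pairs above 0.1 and 4 below −0.1. These values do not exclude pairing in some of the groups. With the replicate number as a block, members called were 2 for RWPE surface (0; ODC1 −0.60 and SMOX −1.34) and 6 for RWPE androgen (4; OAZ1 0.39 and SAT1 0.62 added), and the SMS surface call in LNCaP was lost (0.53), as were SAT1 (−0.90) and SMOX (−0.62) between MDAPCa2a and RWPE with androgen. PAOX, at 19 to 410 reads, is limited most by depth.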

Other observations

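Genes around polyamine metabolism also marked the lines, given here as ranges over all libraries of a line. EIF5A2, a factor whose hypusine is made from spermidine, was at 12.7 to 35.2 CPM in RWPE, 3.85 to 9.19 CPM in LNCaP, 4.87 to 12.2 CPM in VCaP and 0 to 0.179 CPM in MDAPCa2a. SLC3A2 was at 1533 to 2367 CPM in RWPE and at 80.1 to 120.2 CPM in VCaP, without overlap with LNCaP (174 to 416 CPM). AGMAT was at 12.7 to 28.5 CPM in VCaP, 1.17 to 3.07 CPM in RWPE, and at or under 0.565 CPM in LNCaP and MDAPCa2a. SLC7A2 was at 178 to 346 CPM in VCaP and at or under 37.5 CPM in the other 3 lines. These genes were picked after their values were seen, and the ranges are a description.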
